A study of Mus musculus with 6 samples.

Results

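The genes described here encode muscle ubiquitin ligases, FoxO transcription factors and proteins of autophagy. They were taken as the probes whose listed target is FBXO32, TRIM63, FOXO1, FOXO3, FOXO3A, KLF15, MAP1LC3B, GABARAPL1, SQSTM1 or CTSL. These are 9 of 30854 target names in the file and 14 of its 45281 probes, and no probe is listed under FOXO3A, an older name of FOXO3. Expression was measured in myotubes of C2C12, a line of mouse myoblasts whose cells fuse when serum is lowered. Cells were reverse transfected in growth medium with 60 nM of either scramble siRNA (3 arrays) or siRNA against *Dj1* (siDJ-1, 3 arrays), moved to differentiation medium after 48 h and kept there for 4 days. The 6 arrays lay on 1 Illumina mouse BeadChip, on which every probe is read from many beads. Each group had 1 siRNA treatment, so that loss of DJ-1 cannot be told from other effects of its siRNA. The labels number the replicates of each group without saying that they were separate cultures, so that p-values measure only the spread between these arrays, which may be technical.

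Muscle mass falls when protein breakdown outpaces synthesis. Fbxo32 (atrogin-1) and Trim63 (MuRF1) are muscle ubiquitin ligases that mark proteins for the proteasome and rise in many forms of atrophy. Their genes are known targets of the FoxO factors, which Akt keeps out of the nucleus when insulin or growth factors are present, and of the glucocorticoid-induced factor Klf15. FoxO factors also induce autophagy genes. In autophagy, lipid-bound proteins of the Atg8 family such as Map1lc3b and Gabarapl1 coat the autophagosome, receptors such as Sqstm1 (p62) carry cargo to them, and lysosomal proteases such as cathepsin L (Ctsl) digest it.

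Promoter sequences of 8 of the 9 genes were taken from RefSeq (GRCm38.p6), and that of Fbxo32 was not analysed here. The 250 bases before each gene start were searched on both strands for the core of the FoxO binding element, GTAAACA, and for its last 6 letters, TAAACA, which lie within it. GTAAACA was found in 1 of the 8 promoters and in 3.17% of all 32851 promoters of the same length, and TAAACA in 3 of the 8 and in 12% of all. The promoters of Trim63 (chr4:134314870-134315119, + strand) and Gabarapl1 (chr6:129532942-129533191, + strand) are shown because both genes were higher after knockdown and both windows hold a match, with the match in capitals.
Trim63: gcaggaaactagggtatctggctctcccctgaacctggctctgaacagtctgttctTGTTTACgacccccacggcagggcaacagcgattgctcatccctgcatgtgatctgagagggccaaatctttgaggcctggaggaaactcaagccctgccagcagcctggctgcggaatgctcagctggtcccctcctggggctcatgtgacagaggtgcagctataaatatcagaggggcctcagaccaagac
Gabarapl1: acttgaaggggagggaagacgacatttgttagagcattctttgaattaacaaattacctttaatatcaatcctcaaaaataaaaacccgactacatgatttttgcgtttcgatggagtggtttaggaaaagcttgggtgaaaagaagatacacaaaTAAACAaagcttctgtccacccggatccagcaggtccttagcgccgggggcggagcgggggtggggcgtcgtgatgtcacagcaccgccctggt
The Trim63 match is GTAAACA read on the opposite strand, and its TAAACA begins 194 bases before the gene start. In Gabarapl1 the match is TAAACA on the gene's own strand, 94 bases before the start. The remaining promoter with TAAACA was that of Ctsl, and neither motif was found in the windows of Foxo1, Foxo3, Klf15, Map1lc3b and Sqstm1. A match of these letters does not show that a factor binds there.

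The knockdown was examined first. Park7 is the gene symbol of *Dj1*, which 1 probe measures (ILMN_2728754). The normalized log2 signal was 13.59, 13.37 and 13.63 with scramble siRNA against 12.48, 12.49 and 12.15 with siDJ-1. The knockdown arrays thus lay below the scramble arrays, at 44.7% of the scramble signal (log2 fold change -1.16, adjusted p = 0.00344 from limma, standard error 0.14).

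Of the 14 probes, 11 were tested, and all 11 were detected on all 6 arrays. After *Dj1* knockdown, 6 of them were higher at an adjusted p under 0.05 (limma, adjusted over all 17890 tested probes), namely all 3 probes of Fbxo32 and 1 probe each of Trim63, Foxo1 and Gabarapl1. Over the whole array 16.5% of tested probes were called higher and 13.6% lower, 30.1% in all. None of the 11 was called lower by limma or by an unmoderated t-test, and at an unadjusted p under 0.05 there were 7 higher and 1 lower, where 4220 and 3439 of all 17890 tested probes passed that threshold. The median log2 fold change of the 11 probes was 0.52, against 0.05 for all tested probes, and 10 of the 11 were positive. Groups did not overlap for 7 probes with siDJ-1 above and for 1 with siDJ-1 below, where 26.5% and 22% of all tested probes were of these kinds. With 3 arrays per group the smallest two-sided exact permutation p is 0.1, which every probe with separate groups reached. The number called higher was 3 with an unmoderated t-test, and 3 without scramble replicate 2, without siDJ-1 replicate 1 or without siDJ-1 replicate 3. Over all tested probes 2957 were called higher, and 1994, 2181, 1257 and 1330 under these settings in turn.

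**Figure D1:**
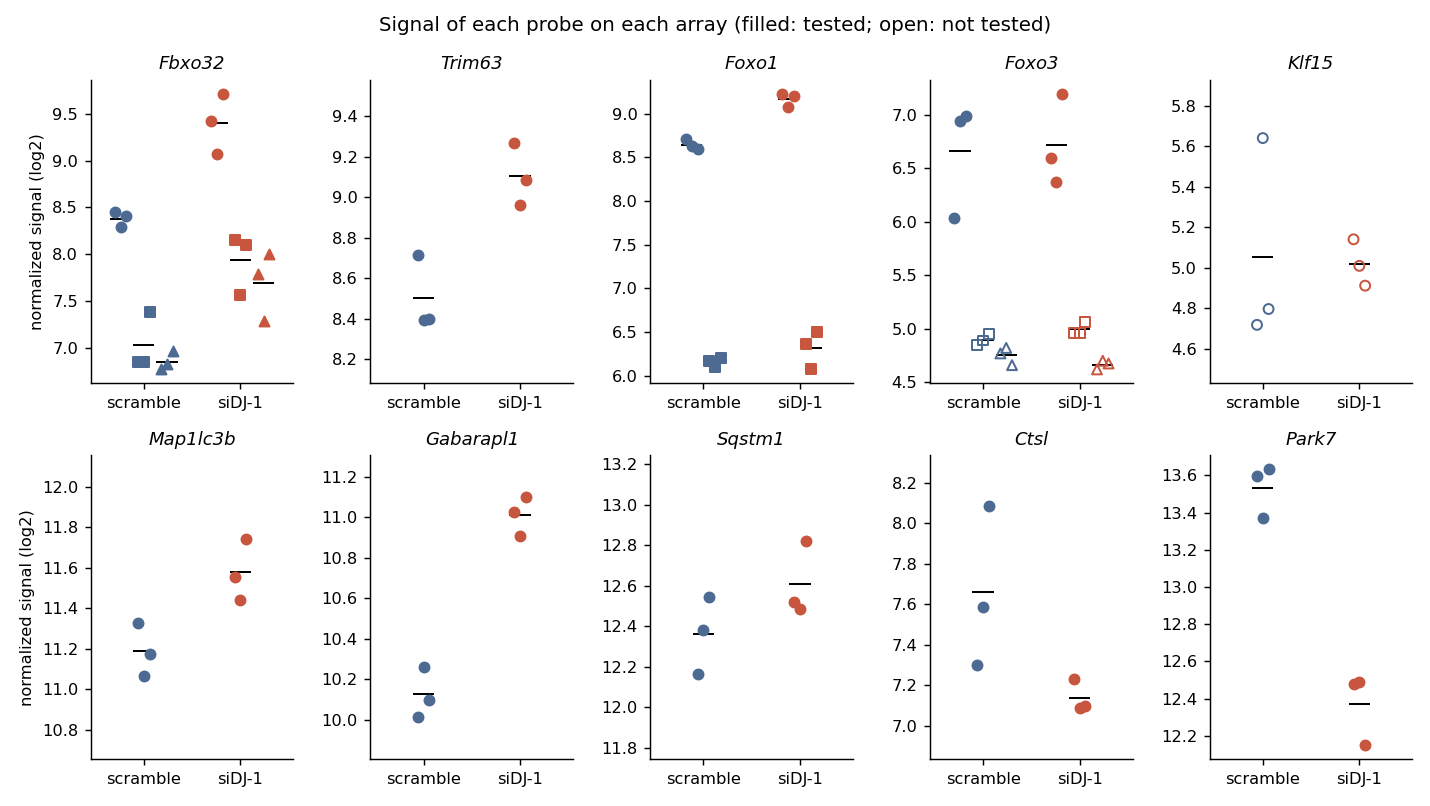
Normalized log2 signal (vertical axis) of every probe on each of the 3 scramble (blue) and 3 siDJ-1 (red) arrays, 1 panel per gene with its own scale, where bars are group means, marker shapes separate the probes of a gene and open markers are probes that were not tested. Among tested probes, the siDJ-1 arrays lie above the scramble arrays for Fbxo32, Trim63, the brighter Foxo1 probe, Map1lc3b and Gabarapl1 and below them for Park7 and Ctsl.

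Arrays of the groups differed in measures other than these genes. Each siDJ-1 array had more detected probes (18704, 18857 and 18408) than each scramble array (16985, 17399 and 18179). The median standard error over beads was also lower on the siDJ-1 arrays (7.17, 6.36 and 5.88) than on the scramble arrays (11.3, 8.30 and 8.66). Of 30 tested probes of myotube markers, 16 were called lower after knockdown (53.3%) and 2 higher (6.67%), with a median log2 fold change of -0.47. Of all tested probes 13.6% were lower and 16.5% higher. Whether the shares of this and the other marker lists differ from these was not tested. The number called lower was 10 without scramble replicate 3, 9 without siDJ-1 replicate 3 and 8 with the unmoderated t-test, and the number called higher was 1 with any array but scramble replicate 3 left out, with the unmoderated t-test and with either other filter. The 2 higher probes were both of titin (Ttn, named after its values were seen), of which 3 other probes were among those called lower. The summed normalized signal of the 38 probes of this list was 305363, 282296 and 285970 with scramble siRNA against 224485, 236485 and 196959 with siDJ-1, with the actin gene Acta1 brightest, and of its genes only nebulin (Neb) was not detected on any array. In such bulk RNA, fewer myotubes and less RNA of these genes per myotube cannot be told apart. Of 10 tested probes of cycling or undifferentiated myoblast markers, 4 were lower (40%) and 0 were higher by limma. The 4 were of Ccnb1, Id1, Id3 and Myod1, named after their values were seen. At an unadjusted p under 0.05, 3 were higher, and 2 were called lower without siDJ-1 replicate 1 or 3. With a detection p under 0.01 on all arrays 2 of these were higher, and 1 was with the unmoderated t-test, a trend of the prior variance, the 75th percentile shift or no background correction. Their 16 probes summed to 6679, 7290.1 and 6590.2 with scramble siRNA against 5700.2, 6368 and 5889.6 with siDJ-1, with Cdk1 brightest and Pax7 not detected. Fibroblast markers, which mesenchymal lines also express, were lower on 4 of 5 tested probes (80%), or on 2 without scramble replicate 3, without siDJ-1 replicate 1 or 3, with the 75th percentile shift, with the replicate block or with no filter on dim probes, and their 13 probes summed to 11571, 10950.4 and 10390.6 with scramble siRNA against 5692, 6594 and 5017 with siDJ-1. The proteoglycan gene Dcn was brightest among these, and Lum and Thy1 were not detected. Adipocyte markers had 1 tested probe, of Pparg, which was called higher by 1.06 on the log2 scale (adjusted p = 0.0264 from limma), while Adipoq, Cfd, Lep and Plin1 were not detected on any array. Pparg was at 0.61 without background correction, and it was not called with the unmoderated t-test, with no filter on dim probes, without scramble replicate 3 (log2 fold change 1.08) or without siDJ-1 replicate 1, 2 or 3 (1.16, 1.1 and 0.92). Their 8 probes summed to 448, 305 and 399.5 with scramble siRNA against 464, 496 and 556 with siDJ-1. Macrophage markers had 1 tested probe, which was called only without scramble replicate 2 (log2 fold change 0.83, against 0.52 with all arrays), and Csf1r, Itgam and Ptprc were not detected, and no endothelial marker was tested. The part of bead noise, of detection and of these marker changes in the results on the ligase, FoxO and autophagy genes was not tested.

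Both muscle ubiquitin ligases were higher in *Dj1* knockdown myotubes. Fbxo32, the substrate-binding subunit of an SCF ligase, has 3 probes. On its brightest probe (ILMN_2873444) the normalized log2 signal was 8.45, 8.29 and 8.41 with scramble siRNA against 9.42, 9.07 and 9.72 with siDJ-1. The deposited intensities of this probe, before any correction, were 505, 469.8 and 462 against 808, 725 and 849. Every knockdown array was above every scramble array. The fold change was 2.03 (log2 fold change 1.02, 95% confidence interval 0.61 to 1.43, adjusted p = 0.00797 from limma, standard error 0.17). This probe was called under all 16 alternative settings, with log2 fold changes from 0.78 to 1.18.

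The other Fbxo32 probes also rose. ILMN_2715893 gave 6.85, 6.85 and 7.39 with scramble siRNA against 8.15, 7.56 and 8.10 with siDJ-1, giving 0.91 as the log2 fold change (adjusted p = 0.0230 from limma, standard error 0.22). For ILMN_2752994 the values were 6.77, 6.82 and 6.97 against 7.79, 7.29 and 8.0, giving 0.84 as the log2 fold change (adjusted p = 0.0188, standard error 0.19). The groups did not overlap on either probe, and on both siDJ-1 replicate 2 was the lowest of the knockdown arrays. With 1 array left out the log2 fold changes ran from 0.80 to 1.09 for ILMN_2715893 and from 0.69 to 1.04 for ILMN_2752994. Both calls were lost with any of several arrays left out, where fewer arrays were compared. ILMN_2715893 was not called without scramble replicate 1 (adjusted p = 0.0508), scramble replicate 2 (0.0643), siDJ-1 replicate 1 (0.0793) or siDJ-1 replicate 3 (0.0821) or with the unmoderated t-test (0.0816). For ILMN_2752994 the adjusted p was 0.051 without scramble replicate 2, 0.0679 without siDJ-1 replicate 1, 0.0557 without siDJ-1 replicate 3 and 0.0688 with the unmoderated t-test. Without background correction the log2 fold changes of these dimmer probes were 0.52 and 0.46, against 0.80 for the brightest probe. The mean of the 3 probes was higher by 0.92 on the log2 scale (1.9-fold, 95% confidence interval 0.50 to 1.35, adjusted p = 0.0106 from limma).

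Trim63, a RING-finger ligase of the sarcomere, has 1 probe (ILMN_3161060). Its normalized log2 signal was 8.72, 8.39 and 8.40 with scramble siRNA against 9.27, 8.96 and 9.09 with siDJ-1. Scramble replicate 1 was the highest control and siDJ-1 replicate 2 the lowest knockdown array, and the groups remained apart. Trim63 rose 1.52-fold (log2 fold change 0.60, 95% confidence interval 0.28 to 0.93, adjusted p = 0.0196 from limma, standard error 0.14). The direction was the same under all 16 alternatives (0.45 to 0.72). The call was lost without scramble replicate 2 (adjusted p = 0.0558), scramble replicate 3 (0.0538), siDJ-1 replicate 1 (0.0725) or siDJ-1 replicate 3 (0.0621), and with the unmoderated t-test on all arrays (0.0555).

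**Figure D2:**
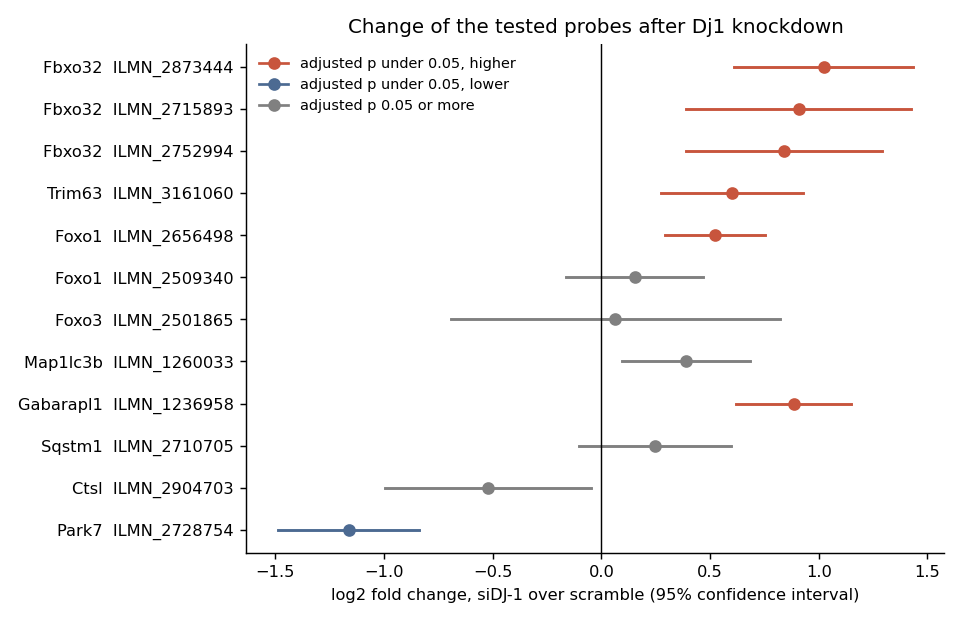
Log2 fold change of siDJ-1 over scramble (horizontal axis) with its 95% confidence interval for the 11 tested probes and Park7, from the limma fit to 3 arrays per group, with red and blue for probes called higher and lower at an adjusted p under 0.05 and grey for the others. The largest value is that of Fbxo32 ILMN_2873444 at 1.02, and the intervals of Map1lc3b and Ctsl leave out 0 although neither passed the adjusted threshold.

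Of the transcription factors, Foxo1 was higher and the others gave no call. Foxo1, a main driver of atrophy genes in muscle, has 2 probes. On ILMN_2656498 the normalized log2 signal was 8.71, 8.63 and 8.60 with scramble siRNA against 9.23, 9.07 and 9.21 with siDJ-1. The arrays of each group lay close together and the groups did not overlap. This is a 1.44-fold rise (log2 fold change 0.52, 95% confidence interval 0.29 to 0.75, adjusted p = 0.0105 from limma, standard error 0.10), called under all 16 alternatives (0.34 to 0.57). The lowest of these values is that of both Foxo1 probes averaged, and the lowest of this probe alone was 0.39. The dimmer Foxo1 probe (ILMN_2509340) gave 6.17, 6.10 and 6.21 against 6.37, 6.07 and 6.50. Its groups overlapped, with siDJ-1 replicate 2 below the scramble arrays, and the log2 fold change was 0.15 (95% confidence interval -0.16 to 0.47, adjusted p = 0.417), or 0.06 without siDJ-1 replicate 3 or background correction and 0.27 without siDJ-1 replicate 2. With both probes averaged, Foxo1 was higher by 0.34 (adjusted p = 0.0490). Whether the probes differ in their change was not tested.

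Foxo3, which induces both ligases and autophagy genes in muscle, was tested on 1 of its 3 probes. ILMN_2501865 gave a normalized log2 signal of 6.04, 6.94 and 6.99 with scramble siRNA against 6.60, 6.37 and 7.20 with siDJ-1. The spread within each group was wider than the difference between them, with scramble replicate 1 the lowest of all arrays. The log2 fold change was 0.06 with a 95% confidence interval from -0.69 to 0.82 (adjusted p = 0.895 from limma), and the log2 fold change of Foxo1, 0.52, lies within this interval. Its sign turned without scramble replicate 1 (-0.25) and without siDJ-1 replicate 3 (-0.18), and it was at 0.20 and 0.23 without scramble replicate 2 and 3 and at 0.13 and 0.24 without siDJ-1 replicate 1 and 2. The other probes, ILMN_2439078 and ILMN_2690574, were not detected on any array, with detection p-values from 0.154 to 0.848.

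Klf15, a glucocorticoid-induced factor of amino acid breakdown, has 1 probe (ILMN_1235255), which was not tested. It was detected on 1 of 6 arrays, scramble replicate 2. Its normalized log2 signal was 4.72, 5.64 and 4.8 with scramble siRNA against 5.14, 5.01 and 4.91 with siDJ-1. Detection p-values were 0.0363 on that array and from 0.106 to 0.610 on the 5 others, so that this probe gave no level of Klf15 above background there.

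Among the autophagosome proteins, Gabarapl1 was higher. This member of the Atg8 family, a known FoxO target, gave 10.01, 10.26 and 10.10 with scramble siRNA against 11.02, 10.91 and 11.10 with siDJ-1 (ILMN_1236958, normalized log2 signal). The deposited intensities were 1204, 1385 and 1195 against 2236, 2279.6 and 2072. The spread within each group was a fraction of the step between the groups. Gabarapl1 rose 1.85-fold (log2 fold change 0.89, 95% confidence interval 0.62 to 1.15, adjusted p = 0.00374 from limma, standard error 0.11) and was called under all 16 alternatives (0.81 to 0.98).

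Map1lc3b, which encodes the autophagosome marker LC3B, lay close to the threshold. Its probe (ILMN_1260033) gave 11.33, 11.07 and 11.18 with scramble siRNA against 11.56, 11.44 and 11.74 with siDJ-1. All knockdown arrays were above all scramble arrays, but the log2 fold change of 0.39 (95% confidence interval 0.09 to 0.69, standard error 0.12) did not pass the test (adjusted p = 0.0550 from limma). It passed under 8 of 16 alternatives, among them no background correction (adjusted p = 0.0130), the 75th percentile shift (0.0242) and leaving out scramble replicate 1 (0.0442), of a range up to 0.153. Among the other Atg8 genes, 1 of 2 Map1lc3a probes was called higher (ILMN_2686183, log2 fold change 0.49, adjusted p = 0.0397) and the other was at 0.25 (adjusted p = 0.253). Gabarap was at 0.28 (adjusted p = 0.0721), and the 2 Gabarapl2 probes were at -0.43 and 0.25 (adjusted p = 0.570 and 0.574). Map1lc3a, Gabarap and Gabarapl2 were named after their values were seen.

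The receptor and the protease were not called. Sqstm1, which binds ubiquitinated cargo and is itself degraded by autophagy, gave 12.17, 12.38 and 12.55 with scramble siRNA against 12.52, 12.48 and 12.82 with siDJ-1 (ILMN_2710705). The groups overlapped through scramble replicate 3, and the log2 fold change was 0.25 (95% confidence interval -0.10 to 0.59, adjusted p = 0.245 from limma). It passed under 1 of 16 alternatives, the 75th percentile shift without background correction (adjusted p = 0.0418), and was at 0.15 without scramble replicate 1, 0.14 without siDJ-1 replicate 3 and 0.40 with the 75th percentile shift. Ctsl was the single tested probe of the 11 with a negative value. It gave 7.30, 7.59 and 8.09 with scramble siRNA against 7.23, 7.08 and 7.09 with siDJ-1 (ILMN_2904703). The scramble arrays were spread out and the siDJ-1 arrays lay together just below the lowest of them. The log2 fold change was -0.52 (95% confidence interval -1.0 to -0.05, adjusted p = 0.0922 from limma, standard error 0.20), or -0.30 without background correction and -0.31 without scramble replicate 3, and it was called lower only without scramble replicate 1 (-0.70, adjusted p = 0.0290).

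On all 6 probes called higher, siDJ-1 replicate 2 was the lowest of the 3 knockdown arrays. Over all 2957 probes called higher on the array it was the lowest for 57.3%, siDJ-1 replicate 1 for 24.4% and siDJ-1 replicate 3 for 18.3%. Park7 itself was at 12.49 on that array, against 12.48 and 12.15 on the others. The probes of other genes whose signal was most like that of the brightest Fbxo32 probe over the 6 arrays were those of Gadd45a (Pearson r = 0.9994), Arhgef2 (0.9992) and Tbc1d15 (0.9984). For Trim63 they were Hyi (0.9982), Clasp1 (0.9969) and Snurf (0.9955). These 6 arrays form 2 groups, and 1708 of the tested probes had an r over 0.9 with Fbxo32 and 1228 with Trim63, so that the likeness describes these arrays only.

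The other known FoxO targets include genes of apoptosis and metabolism. Of 40 tested probes of this list (23 genes, leaving out the 9 genes above), 20 were called higher in 13 genes and 3 lower in 2 genes, with a median log2 fold change of 0.39, or 0.37 with the probes undetected in a whole group at their bound. Of the 34 probes detected on every array, 17 were higher (50%) and 3 lower, against 16.3% and 15.2% of all 14704 such probes. Whether the shares of this and the following lists differ from those of all probes was not tested. The lists were chosen with earlier results of these data known, and probes of 1 gene are counted separately. Txnip, an inhibitor of thioredoxin and of glucose uptake, gave 11.51, 11.05 and 10.77 with scramble siRNA against 13.20, 12.88 and 13.15 with siDJ-1 (ILMN_3112873), giving 1.97 as the log2 fold change (adjusted p = 0.00299 from limma, standard error 0.20). Bcl2l11, the pro-apoptotic protein Bim, rose by 1.49 (adjusted p = 0.00589, standard error 0.22), or by 0.77 without background correction. For Pdk4, the kinase that shuts down pyruvate dehydrogenase, the values were 8.68, 8.62 and 8.97 against 10.10, 10.05 and 10.03, giving 1.30 as the log2 fold change (adjusted p = 0.00277, standard error 0.12). These 3 were higher under every alternative that tested them. In the other direction, the proteasome subunit gene Psmc4, which rises in atrophying muscle, was lower on both probes (-0.73 and -0.67, adjusted p = 0.00589 and 0.00637). Lipoprotein lipase (Lpl) was at -0.59 (adjusted p = 0.0441), and its adjusted p was from 0.0593 to 0.113 with scramble replicate 1, 2 or 3 or siDJ-1 replicate 1 or 3 left out, 0.0822 with the 75th percentile shift, 0.0957 with no filter on dim probes, 0.111 with the unmoderated t-test and 0.0850 with the replicate block. The number of FoxO target probes called higher was 10 without siDJ-1 replicate 1, 11 without siDJ-1 replicate 3 and 13 with the unmoderated t-test or no filter on dim probes, and 5 were lower with a trend of the prior variance.

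**Figure D3:**
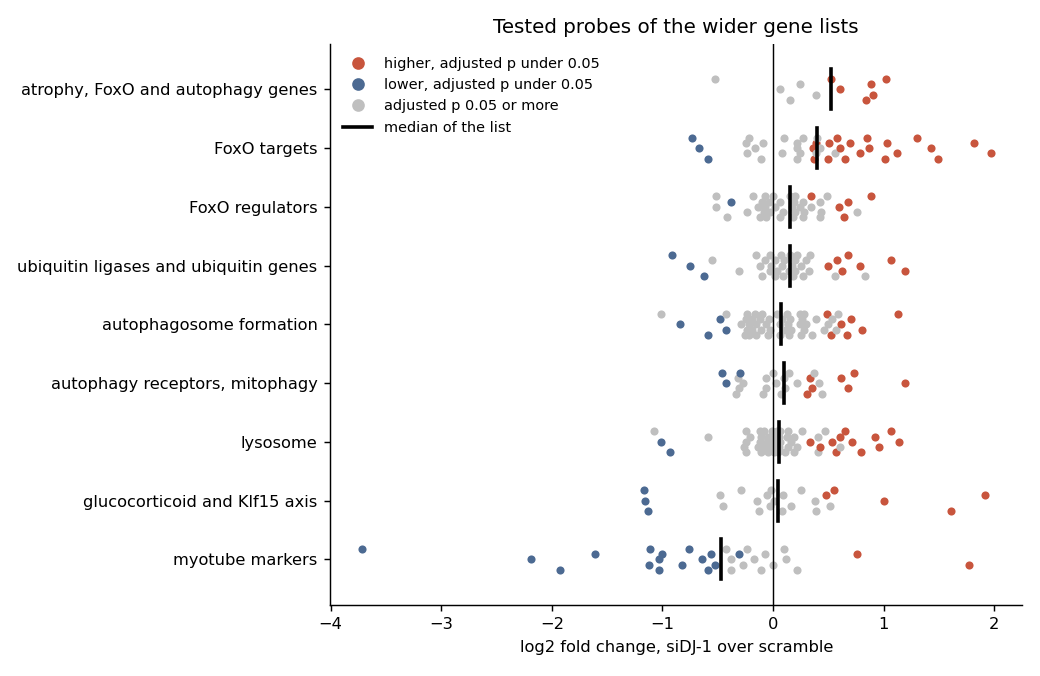
Log2 fold change of siDJ-1 over scramble (horizontal axis) for each tested probe of the 9 genes and of the wider lists, with the list median as a black bar and points at fitted values, also for probes undetected in 1 group. FoxO targets have their median at 0.39 and myotube markers at -0.47, while the medians of the other lists drawn, beside that of the 9 genes at 0.52, lie between 0.04 and 0.15.

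The regulators of FoxO activity are insulin pathway kinases, adaptors and FoxO-binding proteins. Of their 41 tested probes 5 were higher (12.2%) and 1 was lower (2.44%), against 16.5% and 13.6% of all tested probes (median 0.15). None was lower without scramble replicate 3, without siDJ-1 replicate 1 or 3, with the 75th percentile shift or with no filter on dim probes. The median was 0.05 without background correction, 0.06 with a detection p under 0.01 on all arrays and 0.01 with no filter on dim probes. The number higher was 3 without scramble replicate 2, 1 without siDJ-1 replicate 1, 2 without siDJ-1 replicate 3, 3 with the unmoderated t-test, 10 without background correction, 9 with a trend of the prior variance, 8 with a detection p under 0.01 on all arrays and 8 when uncorrected signal was shifted to a common 75th percentile. Rictor, a subunit of the complex that activates Akt, rose by 0.68 (adjusted p = 0.0171 from limma), and the insulin receptor substrate Irs2, which FoxO1 is known to induce, rose by 0.64 (adjusted p = 0.00760, standard error 0.11). Irs2 was called under all alternatives, whereas Rictor lost the call without siDJ-1 replicate 1 (adjusted p = 0.0639) and without siDJ-1 replicate 3 (0.0614) and with the unmoderated t-test (0.0555). The mean of the tested probes under its target name was higher by 1.16. No other probe assigned to Rictor was tested, so this mean is not a value of Rictor alone. Usp7, which removes ubiquitin from FoxO factors, was lower on 1 of 3 probes (-0.38, adjusted p = 0.0377), a call lost without scramble replicate 1 (0.0728) or 3 (0.0897) and without siDJ-1 replicate 1 (0.122) or 3 (0.115), with the 75th percentile shift (0.108), no filter on dim probes (0.0861) or the replicate block (0.0877). The mean of its probes was at -0.17 (adjusted p = 0.333). The myostatin gene Mstn was not detected on any array, and neither was Foxo4. Mstn and Foxo4 were named after their values were seen.

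Of 40 tested probes of other ubiquitin ligases and ubiquitin genes of muscle, 7 were higher (17.5%) and 3 lower (7.5%), against 16.5% and 13.6% of all tested probes (median 0.15). Of the 34 detected on every array 5 were higher (14.7%) and 3 lower. Without background correction the median of the 40 probes was 0.09. Without siDJ-1 replicate 1 there were 4 higher and 1 lower, without siDJ-1 replicate 3 there were 4 and 0, without scramble replicate 2 or 3 or with the unmoderated t-test there was 1 lower, with a detection p under 0.01 on all arrays there were 5 lower, and there were 13 higher with a trend of the prior variance and 14 when uncorrected signal was shifted to a common 75th percentile. Fbxo31, an F-box protein, was higher on both probes, by 0.78 (adjusted p = 0.00361 from limma, standard error 0.09) on the first and 0.49 on the second (adjusted p = 0.0429). A dim probe of the ligase gene Znrf2 was higher by 1.19 (adjusted p = 0.00791), or by 0.41 without background correction, but it was detected on 1 of 3 scramble arrays and a brighter Znrf2 probe was at 0.08 (adjusted p = 0.726). Ube2b, a ubiquitin-conjugating enzyme, was at least 1.35-fold higher on a probe undetected on every scramble array, which entered the test through the siDJ-1 arrays alone, a bound set by the dimmest signal still detected in each control, and at 0.18 on its brighter probe (adjusted p = 0.167). Lower were Trim54 (MuRF3), a relative of Trim63 (-0.62, adjusted p = 0.0145, standard error 0.13), the F-box protein Fbxw7 (-0.92, adjusted p = 0.0244) and 1 of 4 tested Wwp1 probes (-0.75, adjusted p = 0.0374). The Trim54 call was lost without siDJ-1 replicate 3 (adjusted p = 0.0524). Without background correction the values of Fbxw7 and Wwp1 were -0.60 and -0.31. Fbxw7 was not called without scramble replicate 2 (0.0690) or 3 (0.0609) or without siDJ-1 replicate 1 (0.0670) or 3 (0.0843), with the unmoderated t-test (0.0854) or with no filter on dim probes (0.0528). For Wwp1 the adjusted p was from 0.0566 to 0.108 with scramble replicate 1, 2 or 3 or siDJ-1 replicate 1 or 3 left out, 0.0811 with no filter on dim probes, 0.110 with the unmoderated t-test and 0.0660 with the replicate block. Other tested Wwp1 probes were at -0.30 and -0.15. The remaining tested probe was undetected on every scramble array and was not called, so its change has no exact size. The mean of the Wwp1 probes, which includes it, was at -0.22 (adjusted p = 0.202).

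Of 56 tested probes of genes that build the autophagosome, 7 were higher (12.5%) and 4 lower (7.14%), against 16.5% and 13.6% of all tested probes, with a median of 0.07. There were 4 higher and 0 lower without siDJ-1 replicate 1 or 3, 4 higher and 1 lower with the unmoderated t-test or no filter on dim probes, 1 lower without scramble replicate 2 or 3 and 0 lower with the replicate block. Ulk1, the kinase that starts autophagy, gave 8.29, 8.12 and 7.82 with scramble siRNA against 9.14, 9.13 and 9.33 with siDJ-1 (ILMN_2506115), giving 1.13 as the log2 fold change (adjusted p = 0.00403 from limma, standard error 0.15). The arrays of the groups were well apart. A second Ulk1 probe was higher by 0.80 (adjusted p = 0.0313), while the related kinase Ulk2 was lower on 1 of 2 probes (-0.59, adjusted p = 0.0471). Wdr45, a phosphoinositide-binding protein of the forming membrane, rose by 0.67 (adjusted p = 0.00620), and Atg13, which binds Ulk1, by 0.71 (adjusted p = 0.0472, standard error 0.21). Vmp1, a lipid scramblase, was lower on 2 of 5 probes (-0.84 and -0.48, adjusted p = 0.0299 and 0.0192), the first at -0.41 without background correction, and the brightest Vmp1 probe was at 0.08 (adjusted p = 0.546). Atg3, the enzyme that attaches lipid to Atg8 proteins, was at -0.43 (adjusted p = 0.0468). Ulk1 and Wdr45 were called under all alternatives. Atg13 was called with scramble replicate 3 left out and with none of the 5 other arrays left out (adjusted p from 0.0527 to 0.143), and not with the unmoderated t-test (0.128) or no filter on dim probes (0.101). With the replicate block Atg13 was only just called (0.05 after rounding). Ulk2 was not called without scramble replicate 2 (0.0981) or 3 (0.115) or siDJ-1 replicate 1 (0.144) or 3 (0.143), Vmp1 ILMN_2591781 without scramble replicate 1 (0.0584) or 3 (0.0660) or siDJ-1 replicate 1 (0.0886) or 3 (0.0951), and Atg3 without scramble replicate 1, 2 or 3 or siDJ-1 replicate 1 or 3 (0.0561 to 0.149). Ulk2, Vmp1 ILMN_2591781 and Atg3 were also not called with no filter on dim probes (0.101, 0.0645 and 0.103), the unmoderated t-test (0.117, 0.0959 and 0.0858) or the replicate block (0.0631, 0.0601 and 0.0952), and Atg3 not with the 75th percentile shift (0.118). The mean of the Ulk2 probes was at -0.40 (adjusted p = 0.0817) and that of the Vmp1 probes at -0.49 (adjusted p = 0.0459).

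Of the autophagy receptors and mitophagy genes, 7 of 27 tested probes were higher (25.9%) and 3 lower (11.1%), against 16.5% and 13.6% of all tested probes (median 0.10). There were 3 higher and 0 lower without siDJ-1 replicate 1 or 3, 4 higher and 1 lower without scramble replicate 1 or 2 or with no filter on dim probes, 4 higher and 2 lower with the replicate block and 1 lower with the 75th percentile shift. The mitophagy receptors Bnip3 and Bnip3l (Nix), both known FoxO3 targets in muscle, rose by 1.19 (adjusted p = 0.00454 from limma, standard error 0.16) and 0.68 (adjusted p = 0.00548, standard error 0.10). Without background correction Bnip3 was higher by 0.50. Bnip3l gave 12.30, 12.13 and 12.25 with scramble siRNA against 12.93, 12.82 and 12.96 with siDJ-1, with every knockdown array above the controls. Nfe2l2 (Nrf2), which induces Sqstm1, rose by 0.73 (adjusted p = 0.00918, standard error 0.13). Keap1, the adaptor that sends Nrf2 to degradation and is bound by Sqstm1, was lower on 2 of 4 probes (-0.46 and -0.42, adjusted p = 0.0180 and 0.0364), the first of which lost its call without siDJ-1 replicate 1 (0.0551) or 3 (0.0583). Tbk1, a kinase of autophagy receptors, was at -0.30 (adjusted p = 0.0495) and was not called with any 1 array left out (0.0783 to 0.162). With the 75th percentile shift it was at -0.18 (adjusted p = 0.229), or -0.21 on uncorrected signal (0.0651), and it was not called with no filter on dim probes (0.114) or with the replicate block (0.103).

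Lysosome genes had 12 of 57 tested probes higher (21.1%) and 2 lower (3.51%), against 16.5% and 13.6% of all tested probes (median 0.05). Of these 12, 3 were not detected on any scramble array, and of 49 probes detected on every array 9 were higher (18.4%) and 1 lower (2.04%), against 16.3% and 15.2% of all such probes. The number higher was 6 without siDJ-1 replicate 1 and 5 without siDJ-1 replicate 3, and the number lower was 4 without scramble replicate 1, without background correction or with the unmoderated t-test and 6 with a trend of the prior variance. The 3 probes undetected with scramble siRNA entered the test through the siDJ-1 arrays alone, and among them were those of Lamp2 (at least 1.47-fold, not called with the unmoderated t-test) and Ctsa (at least 1.43-fold). Probes of these genes did not move alike. Lamp2, a lysosomal membrane protein, was higher on 3 further probes (0.72, 0.65 and 0.53, adjusted p = 0.00585, 0.0103 and 0.00997 from limma) and at 0.05 and -0.04 on its brightest probes (adjusted p = 0.720 and 0.755). The carboxypeptidase gene Ctsa was at -0.11 on its brightest probe (adjusted p = 0.539). Gusb (beta-glucuronidase) was lower on 2 of 3 probes (-1.02 and -0.93, adjusted p = 0.00546 and 0.0102) and not called on the dim remaining probe (-1.08, adjusted p = 0.130), and the first was called under all alternatives.

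The glucocorticoid axis, to which Klf15 belongs, was tested on 24 probes, of which 5 were higher (20.8%) and 3 lower (12.5%), against 16.5% and 13.6% of all tested probes (median 0.04). The number higher was 3 without scramble replicate 3, without siDJ-1 replicate 1 or with no filter on dim probes. Per1, a clock gene induced by glucocorticoids, gave 5.93, 6.24 and 6.32 with scramble siRNA against 8.23, 7.51 and 8.48 with siDJ-1 (ILMN_2813487). It rose by 1.91 on the log2 scale (adjusted p = 0.00429 from limma, standard error 0.26), or 0.99 without background correction, and by 1.61 on its second probe (adjusted p = 0.00381). Cebpd, another induced factor, rose by 1.00 (adjusted p = 0.00733, standard error 0.17). Bckdha, a subunit of the branched-chain keto acid dehydrogenase, rose by 0.55 (adjusted p = 0.0301), a call lost without scramble replicate 2 (0.0786) or 3 (0.0629) or siDJ-1 replicate 1 (0.0931) or 3 (0.0865), with the unmoderated t-test (0.0741) or with no filter on dim probes (0.0667). All 3 lower probes were of Hsd11b1, the enzyme that makes active glucocorticoid inside cells, at -1.16, -1.16 and -1.13 (adjusted p = 0.00416, 0.00707 and 0.00374), and a dim further probe of the gene was not called (-0.14, adjusted p = 0.545). On ILMN_3115917 Hsd11b1 gave 12.27, 12.14 and 12.33 with scramble siRNA against 11.04, 11.37 and 10.83 with siDJ-1, with the groups apart.

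**Figure D4:**
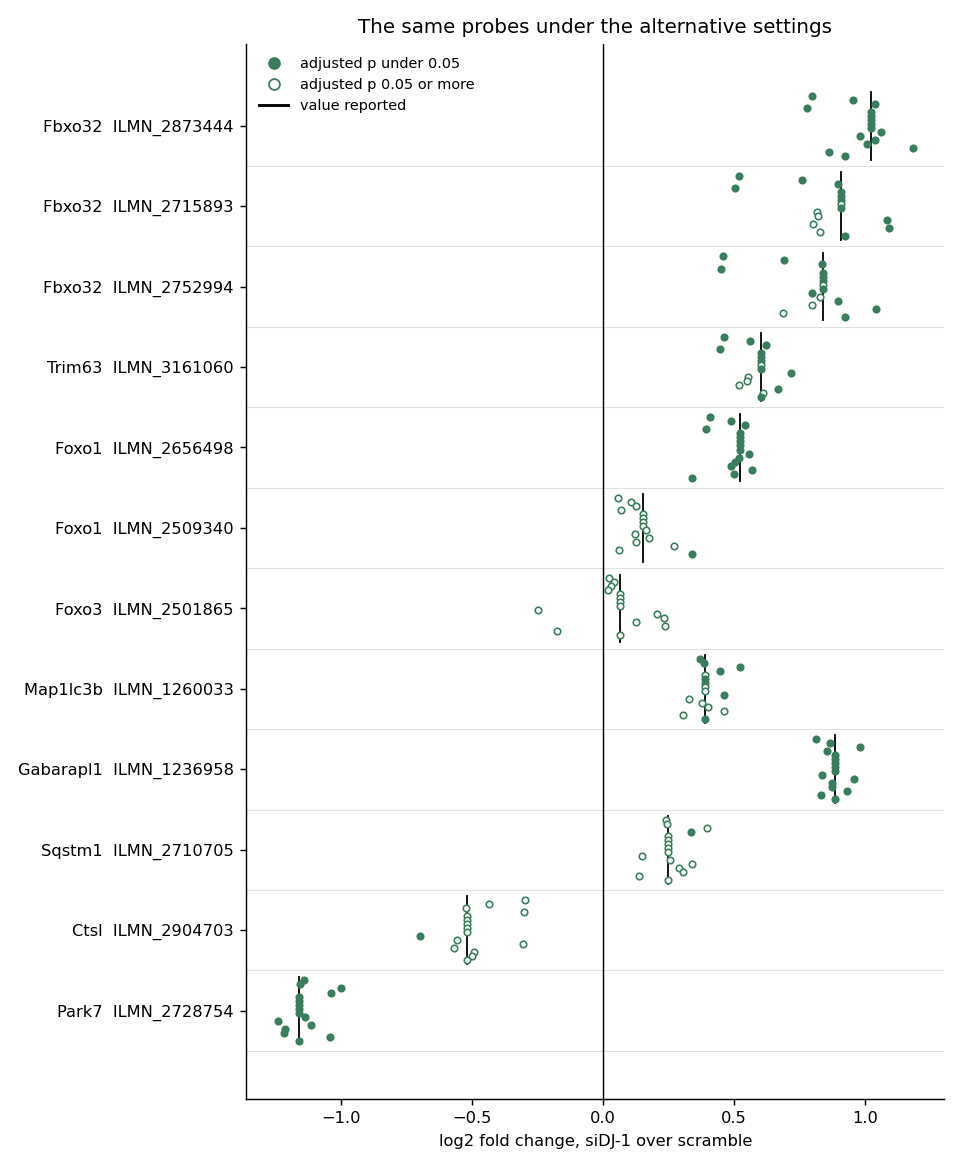
Log2 fold change of siDJ-1 over scramble (horizontal axis) for the 11 tested probes and Park7 under each alternative setting, filled at an adjusted p under 0.05 and open otherwise, with black bars at the values reported. Fbxo32 ILMN_2873444, Foxo1 ILMN_2656498, Gabarapl1 and Park7 have filled points only, and Foxo3 alone has values on both sides of 0.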

How the data were processed

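RNA of C2C12 myotubes, 3 samples with scramble and 3 with siDJ-1, was labelled and hybridized to 1 Illumina Mouse WG-6 V2 BeadChip. Per the file headers, the authors deposited the mean bead intensity of each probe on each array, neither normalized nor background-subtracted. They also deposited the count of beads behind each value and a detection p-value against negative controls. The genome build behind the probe annotation of the file is not given in the sources used here.

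In R 4.3.3 with limma 3.58.1, background was corrected by normexp with an offset of 16, the negative controls being inferred from the detection p-values. Arrays were then quantile normalized and values taken to log2. A probe was tested if its detection p was below 0.05 on 3 or more of the 6 arrays, which left 17890. The fit used lmFit and eBayes, with Benjamini-Hochberg adjustment across all tested probes and a call at 0.05. Each probe was kept separate. Gene names follow RefSeq (GRCm38.p6) for 32345 probes and the file otherwise. The number of arrays limits the precision. The steps were tested on simulated data.

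Every probe of the listed genes is named, and of each wider list the 3 called probes that rose most and the 3 that fell most, 1 per gene, detected on every array of at least 1 group, save some that are not reported here but are in the counts. Further genes are marked as named after their values were seen, or are further probes and relatives of named genes. The genes and lists were chosen with earlier results of these data known. The wider lists were FoxO targets, FoxO regulators, ubiquitin ligases and ubiquitin genes, autophagosome formation, autophagy receptors and mitophagy, lysosome and the glucocorticoid axis, beside markers of 6 cell types. A probe undetected on all arrays of 1 group is given as a bound, comparing the other group with a ceiling for the undetected arrays, for each array its dimmest detected signal or, if higher, the signal of the probe. The alternatives were other background corrections, scalings, probe filters and variance priors, a block for the replicate number, leaving out each array, averaging the probes of a target and an unmoderated t-test. They were applied to the listed genes and to the probes this rule picks, not to further probes.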

Additional observations from a re-analysis of the deposited data

How the results depend on the processing

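Park7 and 3 probes called higher (Fbxo32 ILMN_2873444, Foxo1 ILMN_2656498 and Gabarapl1) were called under all 16 alternatives. The number of changed probes on the array, 5387, fell to 3519 with no filter on dim probes, where 45281 probes were tested. With 1 array left out it ran from 2444 to 5302, fewer arrays being compared. Of these, 1257 to 2894 were higher and 1187 to 2408 lower, beside which the counts of the lists stand. The number of probes of the 9 genes called higher, 6, was 3 with an unmoderated t-test and ran from 3 to 6 with 1 array left out, and the number called lower ran from 0 to 1. Foxo3 had log2 fold changes from -0.25 to 0.24 with 1 array left out, and the cause was not tested. Averaging the probes of each target gave 5 of the genes called higher, with Map1lc3b among them (adjusted p = 0.0477).

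With the replicate number as a block, 4350 probes were changed and 6 probes of the 9 genes were higher. The labels do not say whether equal numbers pair the arrays, which were treated as unpaired. Deviations of same-numbered arrays correlated at 0.0537, 0.0474 and 0.0199, in each case the highest for that number. The median of all probes stayed between 0.000337 and 0.0694 under each setting that kept the probes separate. Probes near background, such as those of Klf15 and most of Foxo3, give no level, and for dim probes the size of a change depends on the background correction.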
